A study of Homo sapiens with 18 samples.

Results

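A set of genes that act on mineral deposition in soft tissue were followed in BJ cells, a human skin fibroblast line, after knockdown or overexpression of the noncoding transcript PURPL: MGP, ENPP1, ANKH, ALPL, NT5E, STC1, STC2, OMD and TNFRSF11B. They are 9 of the 61544 genes in both deposited tables of raw RNA-seq counts and were found by gene symbol. The members were chosen by the fold change of MGP with PURPL overexpression, which was among the strongest increases, with other regulators of calcification placed beside it. MGP in the overexpression libraries is therefore given as a description with no test, and in those libraries tests are given for the other members.

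The first table holds 9 libraries of CRISPR interference lines, 3 each of a control guide (sgCtrl) and of 2 guides against PURPL (sgRNA-PURPL#1 and sgRNA-PURPL#2). The second holds 9 libraries of overexpression lines, 3 each of a control (Ctrl), PURPL#1-OE and PURPL#2-OE. The labels give no time point, no promoter for the overexpression construct, and no statement of whether the 2 overexpression groups are separate constructs, lines or clones. They also do not say whether the replicates are separate cultures, so p-values measure the spread between these libraries, which may be technical. Knockdown libraries held 11444513 to 12896040 counts each and overexpression libraries 18858976 to 27985649, and mitochondrial genes took 4.26% to 6.24% of the counts. PURPL itself averaged 80.8 CPM (counts scaled to library size, with TMM factors within a table) in sgCtrl, 15.7 with guide 1 and 19.5 with guide 2. It averaged 64.4 CPM in Ctrl, 173 in PURPL#1-OE and 123 in PURPL#2-OE, so each group moved in its labelled direction.

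Soft tissue is kept free of mineral by a balance between inorganic pyrophosphate, which blocks crystal growth, and phosphate, which feeds it. ENPP1 makes pyrophosphate from extracellular ATP, ANKH is needed for the export of pyrophosphate and its precursor ATP, and the phosphatase encoded by ALPL destroys pyrophosphate. NT5E (CD73) turns the AMP left by ENPP1 into adenosine, and its loss in people leads to arterial calcification. MGP is a vitamin K-dependent matrix protein that blocks calcification of vessels and cartilage and binds bone morphogenetic proteins (BMPs). STC1 and STC2 are secreted stanniocalcins, OMD is a small leucine-rich proteoglycan of mineralized matrix, and TNFRSF11B (osteoprotegerin) is a secreted decoy receptor for RANKL and TRAIL.

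Upstream sequence is shown for ENPP1 and ANKH, the pyrophosphate-supplying members that rose together in both overexpression groups. It is taken from RefSeq promoter windows of the GRCh38.p14 build, of which 5 of the 9 members had an entry (ENPP1, ANKH, ALPL, NT5E and STC2). Bases inside the annotated transcripts were removed, which left 246 of 250 bases for ENPP1 (chr6:131807770-131808015, plus strand) and 243 for ANKH (chr5:14871786-14872028, minus strand). Capitals mark the GC box, GGGCGG on either strand.
ENPP1: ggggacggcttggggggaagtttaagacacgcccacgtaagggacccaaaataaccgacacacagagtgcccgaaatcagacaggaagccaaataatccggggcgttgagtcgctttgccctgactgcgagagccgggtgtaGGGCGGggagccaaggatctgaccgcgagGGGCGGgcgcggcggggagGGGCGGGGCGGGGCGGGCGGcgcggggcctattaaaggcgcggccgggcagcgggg
ANKH: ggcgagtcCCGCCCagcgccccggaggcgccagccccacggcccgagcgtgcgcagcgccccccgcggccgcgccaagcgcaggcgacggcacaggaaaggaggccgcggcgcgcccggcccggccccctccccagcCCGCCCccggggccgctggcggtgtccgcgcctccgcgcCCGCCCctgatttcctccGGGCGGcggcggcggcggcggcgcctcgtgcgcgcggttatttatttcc
The ENPP1 window held 6 GC boxes, some of them overlapping, and the ANKH window held 4. Of all 35116 windows of this length, 42.6% held at least 1. Neither window held TATAAA (in 10.7% of all windows), CCAAT (32%), the AP-1 letters TGANTCA (6.57%), the cyclic AMP element TGACGTCA (1.65%) or its TGACG part (21.2%), the RUNX letters TGTGGT (11%) or the TEAD letters CATTCC (11.9%). The windows of NT5E and STC2, which fell in both overexpression groups, lie within annotated longer transcripts of those genes and are not printed. The NT5E window held 2 GC boxes and 1 TGACG, and the STC2 window held no GC box and 1 CCAAT.

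MGP lies on chromosome 12 (14880864 to 14885857, minus strand, as in the files). The gene sits inside C12orf60 on the opposite strand, which had 587 counts over all 18 libraries. Counting followed strand in these files: none of 9429 genes nested in another gene on the same strand had any count, whereas 43.6% of 10950 genes nested only in genes of the opposite strand did.

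MGP was low in the knockdown lines. The 3 sgCtrl libraries had 27, 17 and 13 MGP counts, or 2.34, 1.32 and 1.02 CPM. With guide 1 the levels were 1.87, 1.74 and 1.39 CPM, inside the range of sgCtrl. With guide 2 they were 3.14, 3.27 and 2.82 CPM, above every sgCtrl and every guide 1 library. MGP rose with guide 2 (log2 fold change 0.99 ± 0.277 SE, adjusted p = 0.00837, edgeR quasi-likelihood test), whereas guide 1 gave 0.12 ± 0.307 (adjusted p = 0.823). DESeq2, run without the low-count filter, gave guide 2 an adjusted p of 0.0808. The difference between the guides was 0.87 ± 0.273 (edgeR adjusted p = 0.0391). That call was lost with DESeq2 (adjusted p = 0.304) and when any 1 of the 6 guide libraries was left out (adjusted p 0.0650 to 0.153).

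In the overexpression table MGP was at 10.5, 11.8 and 8.88 CPM in Ctrl. It was at 97.0, 96.6 and 90.9 CPM in PURPL#1-OE and at 48.8, 52.3 and 48.4 CPM in PURPL#2-OE. The 3 groups did not overlap, and the order was Ctrl, PURPL#2-OE, PURPL#1-OE, the same order as for PURPL. The fold was 9.04 in PURPL#1-OE (log2 3.18), the rank 7 increase among 15267 genes, and 4.75 in PURPL#2-OE (log2 2.25), rank 31. These folds chose the gene and support nothing further. In bulk RNA, fewer cells with a transcript and less of it per cell cannot be told apart.

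The 2 control groups differed in MGP. Scaled over all 18 libraries together, Ctrl was 6.83 times sgCtrl for MGP, 5.53 times for OMD and 2.47 times for ENPP1. The other 6 members lay between 0.709 times (STC2) and 1.90 times (STC1). The controls belong to separate tables with different depths, so the line and any difference in handling cannot be told apart and no test is given.

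**Figure D1:**
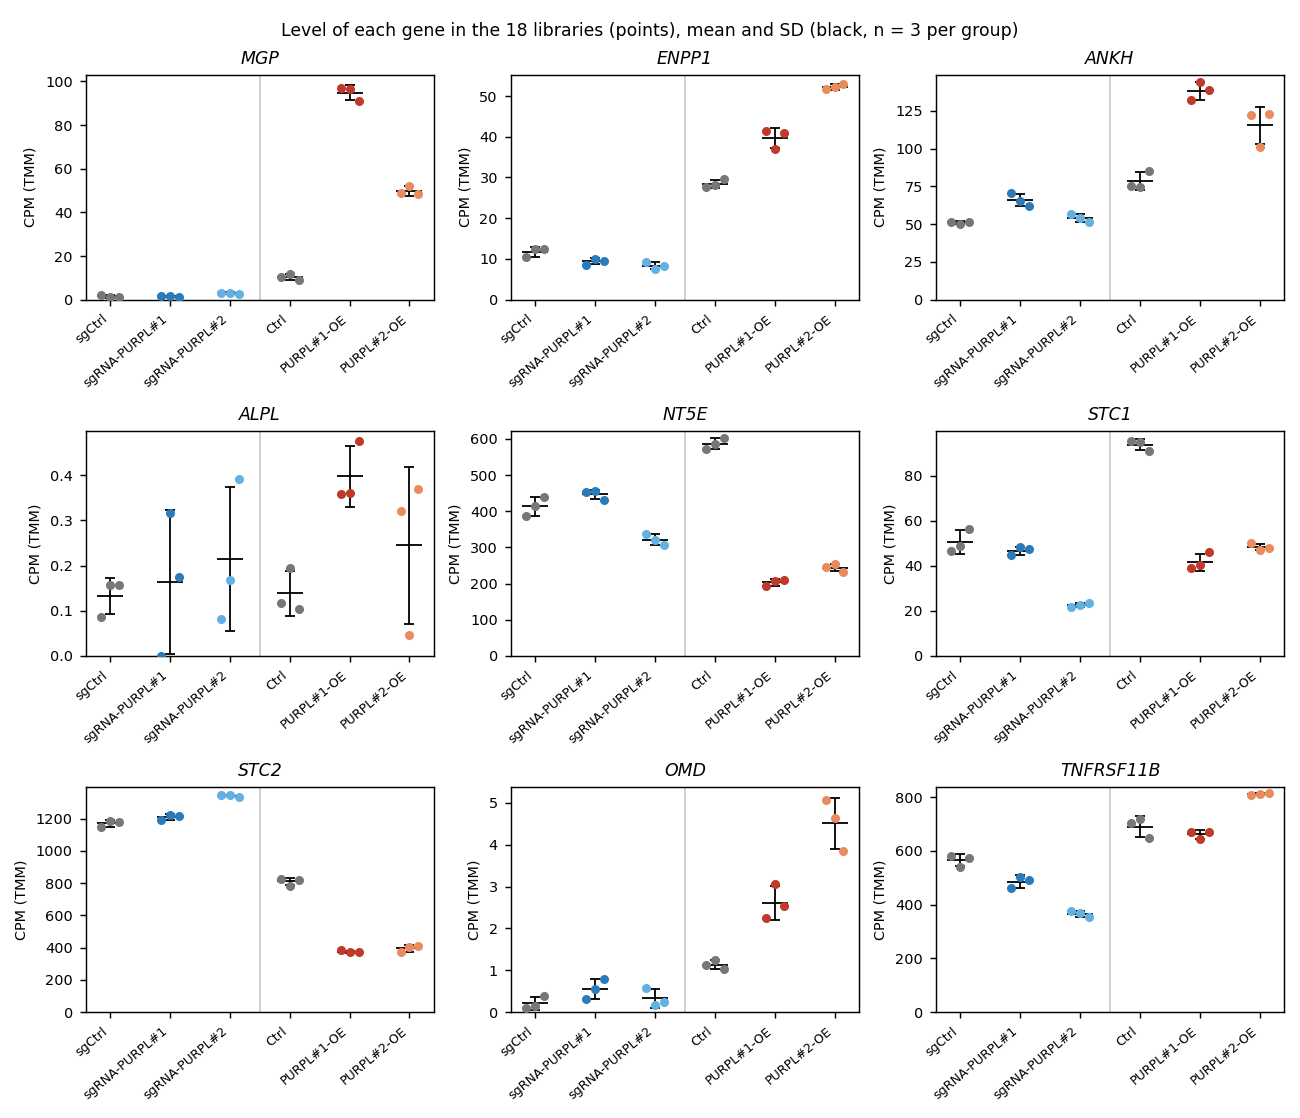
CPM of each of the 9 genes (linear axes starting at 0) in all 18 libraries, with black bars for mean and SD of 3 libraries per group; the grey line parts the knockdown table from the overexpression table, which were scaled separately. MGP sits between 90.9 and 97.0 CPM in PURPL#1-OE and under 12 CPM in both controls, while NT5E, STC1 and STC2 are lower in both overexpression groups than in Ctrl.

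The 2 members that supply extracellular pyrophosphate, ENPP1 and ANKH, rose with overexpression. ABCC6, which supplies it through ATP release and was in a related list, gave log2 0.37 ± 0.274 (adjusted p = 0.310) and 0.40 ± 0.279 (adjusted p = 0.269). ENPP1 was at 27.6, 28.2 and 29.6 CPM in Ctrl, at 41.4, 36.9 and 40.9 in PURPL#1-OE and at 51.6, 52.2 and 53.0 in PURPL#2-OE. No library of one group overlapped another group. The log2 fold change was 0.48 ± 0.0665 in PURPL#1-OE (adjusted p = 5.97e-07) and 0.88 ± 0.0661 in PURPL#2-OE (adjusted p = 3.61e-12), and PURPL#2-OE was above PURPL#1-OE by 0.39 ± 0.0641 (adjusted p = 5.23e-05).

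Among the knockdown libraries ENPP1 was at 10.4, 12.5 and 12.4 CPM in sgCtrl, at 8.64, 10.1 and 9.59 with guide 1 and at 9.25, 7.55 and 8.38 with guide 2. All 6 guide libraries were below the 3 controls. It fell with guide 2 by 0.49 ± 0.130 on the log2 scale (edgeR adjusted p = 0.00547), though the same change missed the threshold with DESeq2 (adjusted p = 0.0507). With guide 1 the log2 fold change was -0.32 ± 0.128 (adjusted p = 0.0650), and it passed when sgCtrl replicate 1 was left out (-0.41, adjusted p = 0.0227).

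ANKH was at 75.6, 74.7 and 85.3 CPM in Ctrl, at 132, 144 and 139 in PURPL#1-OE and at 122, 101 and 123 in PURPL#2-OE. It rose in both, by log2 0.82 ± 0.0672 (adjusted p = 1.52e-10) and 0.56 ± 0.0677 (adjusted p = 1.92e-07). PURPL#2-OE was below PURPL#1-OE by 0.26 ± 0.0661 (adjusted p = 0.00957), a call lost without the PURPL#1-OE library of 22600389 counts (adjusted p = 0.0646) or the PURPL#2-OE library of 21944570 counts (adjusted p = 0.0887). The second of these had the lowest ANKH level of its group.

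Unlike ENPP1, ANKH rose with guide 1. It was at 51.5, 50.3 and 51.6 CPM in sgCtrl, at 70.7, 65.1 and 62.3 with guide 1 and at 56.8, 53.8 and 51.7 with guide 2. The guide 1 change was 0.37 ± 0.0691 (adjusted p = 0.000133) and the guide 2 change 0.08 ± 0.0702 (adjusted p = 0.439). The guides differed by -0.29 ± 0.0688 (adjusted p = 0.00513), which did not pass without sgRNA-PURPL#1 replicate 1 (-0.23, adjusted p = 0.0724).

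ALPL, whose product removes pyrophosphate, had too few counts for a test in either table. Knockdown libraries held 0 to 5 ALPL counts each. In the overexpression table it had 3, 5 and 2 counts in Ctrl, 10, 8 and 12 in PURPL#1-OE and 6, 1 and 9 in PURPL#2-OE. With no filter on low counts, the log2 fold change in PURPL#1-OE was 1.47 ± 0.687 (adjusted p = 0.141) and in PURPL#2-OE 0.78 ± 0.744 (adjusted p = 0.581). The ALPL span also holds an annotated gene of 6599 bases on the same strand, whose reads were left uncounted, so ALPL is uncertain.

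NT5E, the AMP-hydrolysing enzyme, fell most among the members under overexpression. It was at 572, 586 and 602 CPM in Ctrl, at 192, 208 and 209.7 in PURPL#1-OE and at 246, 254 and 233 in PURPL#2-OE. The 3 groups were apart from each other. It fell by 1.53 ± 0.0528 on the log2 scale in PURPL#1-OE (adjusted p = 1.88e-20) and by 1.26 ± 0.0524 in PURPL#2-OE (adjusted p = 2.24e-18), so that PURPL#2-OE was above PURPL#1-OE by 0.27 ± 0.0524 (adjusted p = 0.000568).

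NT5E in the knockdown lines was at 387, 414 and 439 CPM in sgCtrl, at 454, 455 and 432 with guide 1 and at 336, 321 and 307 with guide 2. Guide 1 overlapped the control and guide 2 lay below it. It fell with guide 2 by 0.36 ± 0.0596 (adjusted p = 2.39e-05). With guide 1 the value was 0.11 ± 0.0592 (adjusted p = 0.175), which passed without sgCtrl replicate 3 (0.16, adjusted p = 0.0451), and the guides differed by -0.48 ± 0.0596 (adjusted p = 1.04e-06).

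The stanniocalcins fell together under overexpression and parted with guide 2. STC1 was at 95.4, 94.9 and 91.0 CPM in Ctrl, at 38.8, 40.2 and 45.9 in PURPL#1-OE and at 50, 47.2 and 47.7 in PURPL#2-OE. It fell by 1.17 ± 0.0622 on the log2 scale (adjusted p = 8.64e-16) and by 0.96 ± 0.0621 (adjusted p = 1.08e-13). The step from PURPL#1-OE to PURPL#2-OE was 0.21 ± 0.0642 (edgeR adjusted p = 0.0261). It was lost with DESeq2 (adjusted p = 0.0807) and without the PURPL#1-OE library of 27985649 counts (adjusted p = 0.179), that of 22600389 counts (adjusted p = 0.122) or the PURPL#2-OE library of 18858976 counts (adjusted p = 0.115).

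STC1 in the knockdown lines was at 46.4, 48.8 and 56.4 CPM in sgCtrl, at 44.7, 48.1 and 47.4 with guide 1 and at 21.7, 22.7 and 23.5 with guide 2. Guide 1 overlapped the control, and guide 2 was below every other library of the table. STC1 fell with guide 2 by 1.16 ± 0.0831 (adjusted p = 3.91e-12), with guide 1 it gave -0.11 ± 0.0766 (adjusted p = 0.306), and the guides differed by -1.04 ± 0.0837 (adjusted p = 2.03e-10).

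STC2, whose product inhibits the protease PAPPA, was at 825, 785 and 821 CPM in Ctrl, at 383, 370.0 and 372 in PURPL#1-OE and at 373, 405 and 411 in PURPL#2-OE. It fell 2.16-fold in PURPL#1-OE (SE 0.0513 on the log2 scale, adjusted p = 2.75e-17) and 2.04-fold in PURPL#2-OE (SE 0.0512, adjusted p = 1.89e-16). The overexpression groups overlapped each other, with a difference of 0.08 ± 0.0510 (adjusted p = 0.350).

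In the knockdown table STC2 was at 1146, 1184 and 1182 CPM in sgCtrl, at 1191, 1225 and 1218 with guide 1 and at 1346, 1345 and 1337 with guide 2. It rose slightly with guide 2, by 0.20 ± 0.0539 (adjusted p = 0.00695), and guide 1 gave 0.05 ± 0.0539 (adjusted p = 0.562). The difference between the guides was 0.15 ± 0.0539 (edgeR adjusted p = 0.0841). That difference passed with DESeq2 (adjusted p = 0.0122), with the guide groups fitted alone (adjusted p = 0.00856) and without sgCtrl replicate 1 (adjusted p = 0.0137).

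OMD, the matrix proteoglycan, rose in both overexpression groups from a low level. It was at 1.13, 1.25 and 1.03 CPM in Ctrl (29, 32 and 20 counts), at 2.25, 3.06 and 2.53 in PURPL#1-OE and at 5.06, 4.63 and 3.85 in PURPL#2-OE. The groups did not overlap. The log2 fold change was 1.18 ± 0.218 (adjusted p = 5.71e-05) and 1.97 ± 0.207 (adjusted p = 4.62e-09), with PURPL#2-OE above PURPL#1-OE by 0.79 ± 0.181 (adjusted p = 0.00312). OMD lies inside CENPP on the opposite strand, which had 1903 counts in all. Knockdown libraries held 1 to 9 OMD counts each, and the gene was not tested there.

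TNFRSF11B, the decoy receptor, was among the most abundant members and fell with both guides. It was at 580.3, 539 and 575 CPM in sgCtrl, at 461, 504 and 493 with guide 1 and at 377, 368 and 355 with guide 2. The 3 groups did not overlap. It fell by 0.22 ± 0.0573 on the log2 scale with guide 1 (adjusted p = 0.00532) and by 0.62 ± 0.0577 with guide 2 (adjusted p = 1.02e-09), and the guides differed by -0.41 ± 0.0577 (adjusted p = 7.98e-06).

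In the overexpression table TNFRSF11B was at 704, 719 and 647 CPM in Ctrl, at 672, 643 and 669 in PURPL#1-OE and at 808, 813 and 814 in PURPL#2-OE. PURPL#1-OE overlapped Ctrl (-0.06 ± 0.0509, adjusted p = 0.364). The gene rose in PURPL#2-OE by 0.23 ± 0.0509 (adjusted p = 0.000441), and the overexpression groups differed by 0.30 ± 0.0509 (adjusted p = 0.000115).

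Per kilobase of exon (GENCODE v29), the level in sgCtrl was 199.7 ± 7.96 CPM (SD, n = 3) for TNFRSF11B, 191 ± 3.52 for STC2 and 91.1 ± 5.74 for NT5E. The first 2 did not differ beyond their spread. STC1 (12.2 ± 1.25), ANKH (4.03 ± 0.0586), ENPP1 (1.18 ± 0.121) and MGP (0.591 ± 0.263) followed, and OMD and ALPL were lowest at 0.0863 ± 0.0653 and 0.0442 ± 0.0133. In PURPL#1-OE, MGP on the same scale was at 35.9 ± 1.29, between NT5E at 44.8 ± 2.17 and ANKH at 10.9 ± 0.453. Counting ran over whole gene spans, introns included, so this scale is approximate.

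With guide 1, 1 of the 7 members tested was higher (ANKH) and 1 lower (TNFRSF11B), beside 24.5% of 13923 genes called in either direction (11.6% higher, 12.9% lower). With guide 2, 2 were higher (MGP and STC2) and 4 lower (ENPP1, NT5E, STC1 and TNFRSF11B), beside 24.4% of all genes (11.9% higher, 12.4% lower). DESeq2, run without the low-count filter, called 4 of these 6, without MGP and ENPP1, beside 2145 of 27824 genes. Between the guides 5 of 7 differed, 1 higher and 4 lower with guide 2, beside 9.25% of all genes (5.51% higher, 3.74% lower). All 3 knockdown comparisons share libraries, so their counts are not independent.

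In PURPL#1-OE, 3 of the 7 members tested were higher (ENPP1, ANKH and OMD) and 3 lower (NT5E, STC1 and STC2), beside 39.6% of 15267 genes called (19.5% higher, 20.1% lower). In PURPL#2-OE, 4 were higher (the same 3 and TNFRSF11B) and 3 lower, beside 38.5% of all genes (18.9% higher, 19.6% lower). Between the overexpression groups 6 of 7 differed, 5 higher and 1 lower in PURPL#2-OE, beside 12.4% of all genes (6.18% higher, 6.19% lower). The members were chosen with results of these data known, so these shares describe the set and do not test it.

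**Figure D2:**
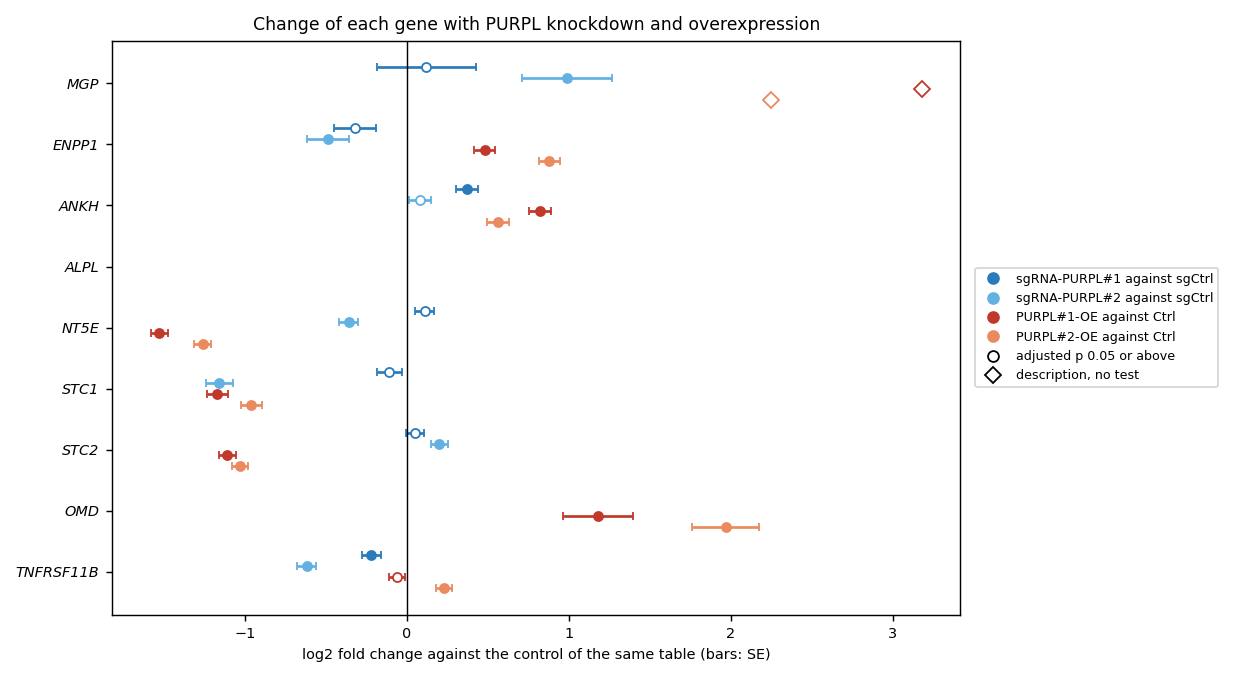
Log2 fold change of each gene against the control of its own table (bars are SE, filled points passed an adjusted p of 0.05, diamonds are MGP under overexpression with no test). NT5E and STC2 lie at -1.53 to -1.03 in both overexpression groups and at -0.36 to 0.20 with the guides, and STC1 is near -1 in 3 of the 4 groups; ALPL, and OMD with the guides, have no point because of low counts.

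The knockdown and overexpression effects, each averaged over its 2 groups, were compared in a single fit over the 18 libraries. They differed for 6 of the 7 members tested, 3 with the knockdown effect higher and 3 with it lower, beside 33.6% of 15166 genes (18.0% higher, 15.6% lower). The other of the 7 was OMD, which is only described here. The knockdown effect was above the overexpression effect by log2 1.28 ± 0.0706 for NT5E (adjusted p = 2.80e-19), 1.20 ± 0.0662 for STC2 (adjusted p = 2.61e-19) and 0.43 ± 0.0862 for STC1 (adjusted p = 8.02e-05). It was below it by -1.08 ± 0.116 for ENPP1 (adjusted p = 2.34e-10), -0.50 ± 0.0680 for TNFRSF11B (adjusted p = 8.27e-08) and -0.46 ± 0.0875 for ANKH (adjusted p = 4.76e-05). OMD, too low for a test with the guides, entered this fit through the overexpression libraries, so its value is only a description of low counts. It was -0.62 ± 0.667 (adjusted p = 0.518), and it became 0.14 without sgCtrl replicate 3 (adjusted p = 0.903). MGP had -2.15, as a description, and -1.76 without sgCtrl replicate 1. ENPP1 fell with guide 2 and rose in both overexpression groups, TNFRSF11B fell with both guides and rose in PURPL#2-OE, and STC2 rose with guide 2 and fell in both overexpression groups. By contrast, STC1 and NT5E fell with guide 2 and in both overexpression groups, and ANKH rose with guide 1 and in both overexpression groups.

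Genes that work beside the members were taken from 9 lists of 95 entries, chosen with earlier results of these data known. The filter on low counts corresponded to 0.799 CPM in the knockdown table and 0.405 CPM in the overexpression table. A listed gene whose mean was under that level in some group was tested because of the groups where it was higher. Its difference is therefore not independent of the filter, though not every such gene was called. Such genes are marked as they come up, with the counts of their list without them. Of all genes, 11.6% were higher and 12.9% lower with guide 1, and 11.9% and 12.4% with guide 2. Under overexpression 19.5% were higher and 20.1% lower in PURPL#1-OE, and 18.9% and 19.6% in PURPL#2-OE. These shares stand beside every list count that follows, and a count near them is no result about its list. For the pyrophosphate and phosphate genes, 8 of 13 were tested. Under overexpression, 2 rose and 3 fell in PURPL#1-OE, and 0 rose and 3 fell in PURPL#2-OE (edgeR; list medians -0.06 and -0.12, against 0.0076 and 0.0069 over all genes). The phosphate importer SLC20A1 fell from 91.5 ± 2.12 CPM (SD, n = 3) to 47.4 ± 0.729 and 52.1 ± 2.55. SAMD9, mutated in a form of familial tumoral calcinosis, fell from 1013 ± 23.9 CPM to 261 ± 1.70 and 264 ± 10.7. ENPP2, a relative of ENPP1 that makes lysophosphatidic acid, fell by 0.85 and 0.29 on the log2 scale.

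With guide 1 the same list had 1 rise and 2 falls, and with guide 2 it had 2 of each. ENPP2 rose from 21.9 ± 0.550 CPM to 61.5 ± 5.38 and 49.3 ± 2.08. The phosphate importers SLC20A2 and SLC20A1 both fell, SLC20A2 from 142 ± 4.92 CPM to 69.1 ± 2.42 and 81.0 ± 1.52, and SLC20A1 from 108 ± 7.5 CPM to 74.9 ± 4.29 and 65.4 ± 5.09. SLC20A1 was thus lower than its control in all 4 perturbed groups.

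MGP needs vitamin K-dependent carboxylation. Of the 10 vitamin K and Gla protein genes 7 were tested, and each guide gave 2 rises and 2 falls (medians -0.12 and 0.02, against 0.0037 and -0.0014 over all genes). GAS6, a Gla protein ligand of receptor tyrosine kinases, fell from 614 ± 64.5 CPM in sgCtrl to 280.1 ± 3.26 and 424 ± 15. The quinone reductase NQO1 rose from 153 ± 0.441 CPM to 343 ± 26.9 and 213 ± 8.66. Under overexpression 1 and 3 of the 7 rose and 0 fell, and VKORC1L1, a vitamin K epoxide reductase, rose by log2 0.42 and 0.31.

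MGP also binds BMPs. Of 10 genes for BMPs, their receptors and their targets, 8 were tested with the guides. Guide 1 gave 5 rises and 2 falls, beside 11.6% and 12.9% of all genes, and guide 2 gave 5 rises and 1 fall, beside 11.9% and 12.4% (medians 1.33 and 1.64, against 0.0037 and -0.0014 over all genes). The target ID1 rose from 20 ± 4.12 CPM to 96.2 ± 3.17 and 109 ± 6.65, and ID2 from 46.3 ± 1.79 CPM to 209 ± 16.1 and 227 ± 7.14. ID3 rose by log2 1.85 and 2.1, and the inhibitory SMAD6 by 1.76 and 2.14. Under overexpression 9 were tested; 2 rose and 2 fell in PURPL#1-OE and 3 rose and 1 fell in PURPL#2-OE (medians -0.06 and 0.12). BMP2, 1 of the falls in PURPL#1-OE, was under the filter level there; without it 1 fell. ID1 fell there, from 5.41 ± 0.180 CPM to 3.70 ± 0.954 and 3.89 ± 0.851, and BMP4, a ligand MGP can bind, rose by 0.17 and 0.65.

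OMD belongs to the small leucine-rich proteoglycans, of which 8 of 11 others were tested under overexpression. In PURPL#1-OE 6 rose and 1 fell, beside 19.5% and 20.1% of all genes, and in PURPL#2-OE 6 rose and 0 fell, beside 18.9% and 19.6% (medians 0.51 and 0.65, against 0.0076 and 0.0069 over all genes). Decorin (DCN), which binds collagen fibrils, rose from 1679 ± 161 CPM to 2210.0 ± 58.6 and 3158 ± 61.6. Biglycan (BGN) rose from 238 ± 21.6 CPM to 364 ± 22.2 and 458 ± 26.2. ECM2 rose by log2 1.07 and 1.39, and OGN by 1.35 and 2.06. OGN, at 0.225 ± 0.0800 CPM in Ctrl, passed the filter through the overexpression groups, and without it 5 of 7 rose in each group. The list medians under overexpression include OGN. Without it the middle gene was DCN in PURPL#1-OE (log2 0.40) and LUM in PURPL#2-OE (0.38). With the guides 3 of 7 rose and 1 fell for each (medians 0.04 and 0.22), and ECM2, BGN and DCN passed as rises in both.

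TNFRSF11B acts on the ligands RANKL and TRAIL. Of 8 genes of that axis 6 were tested under overexpression; 1 rose and 3 fell in PURPL#1-OE, and 1 rose and 2 fell in PURPL#2-OE (medians -0.34 and -0.22). TNFSF10, which encodes TRAIL, fell from 9.33 ± 1.09 CPM to 0.379 ± 0.189 and 1.02 ± 0.202. It was under the filter level in PURPL#1-OE, and without it 1 of 5 rose in each group while 2 and 1 fell. TNFRSF10D, a decoy receptor for TRAIL, rose from 21.1 ± 2.18 CPM to 51.7 ± 1.12 and 50.4 ± 3.89, and the decoy TNFRSF10C fell by 0.43 and 0.40 on the log2 scale. None of the 5 tested passed with either guide (edgeR); the lowest adjusted p among them was 0.0991, for TNFRSF10B with guide 2.

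Of the 5 genes of the stanniocalcin and pappalysin list, all were tested. PAPPA, the protease that STC2 inhibits, rose with both guides, from 166 ± 20.8 CPM to 243 ± 3.13 and 249 ± 4.57. IGFBP5, a substrate of pappalysins, fell with both guides by 0.59 and 0.24 on the log2 scale. In total guide 1 gave 1 rise and 1 fall, and guide 2 gave 3 rises and 1 fall (medians 0.00 and 0.20). Under overexpression 3 rose and 1 fell in each group (medians 0.16 and 0.16). PAPPA2 fell by 0.69 and 1.09, and IGFBP4, the main PAPPA substrate, rose by 0.16 and 0.35.

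Among 13 genes of extracellular adenosine, 8 were tested under overexpression and 2 fell in each group with 0 rising (medians -0.14 and 0.04), a share near the 20.1% and 19.6% of all genes that were lower. These were the NAD-consuming enzyme CD38, at 0.955 ± 0.341 CPM in Ctrl and 0.114 ± 0.102 and 0.0914 ± 0.0435, and the adenosine receptor ADORA2B (-1.14 and -0.62). CD38 passed the filter through Ctrl alone, and SLC29A2 through the overexpression groups; without them 1 of 6 fell in each group. With the guides 3 and 2 of 7 fell and 0 rose (medians -0.14 and -0.19), beside 12.9% and 12.4% of all genes lower. Among the falls was the receptor ADORA1 in both (-0.76 and -1.06). ADA2 was under the filter level in sgCtrl and with guide 2, and without it 3 and 2 of 6 fell.

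For the mineral-binding matrix proteins, 6 of 12 were tested in each table. Under overexpression 4 rose and 1 fell in PURPL#1-OE, and 1 rose and 1 fell in PURPL#2-OE (medians 0.29 and 0.08). Osteopontin (SPP1), an acidic inhibitor of mineral growth, fell from 5.42 ± 1.13 CPM to 2.1 ± 0.306 and 1.5 ± 0.563, and the matrix protein THBS1 rose from 6344 ± 86.6 CPM to 10892 ± 112 and 11345 ± 319. Guide 1 gave 2 falls and 0 rises, and guide 2 gave 2 rises and 0 falls (medians 0.06 and 0.14).

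Of 13 osteogenic and skeletal transcription factors, 10 were tested under overexpression; 2 rose and 3 fell in PURPL#1-OE, and 2 rose and 2 fell in PURPL#2-OE (medians -0.05 and 0.01). SOX9, the cartilage regulator, fell from 4.85 ± 0.524 CPM to 1.54 ± 0.167 and 1.84 ± 0.396. With the guides 11 were tested, with 2 rises and 3 falls for guide 1 and 2 rises and 1 fall for guide 2 (medians -0.06 and 0.01). ALX4 rose by 2.43 and 1.87 from 0.511 ± 0.350 CPM in sgCtrl, so it passed the filter through the guide groups. DLX5 passed through sgCtrl alone, and without both genes 1 rose with each guide and 2 and 1 of 9 fell. SNAI2 rose by 0.74 and 0.80, and TWIST2 fell by 0.80 and 0.81.

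**Figure D3:**
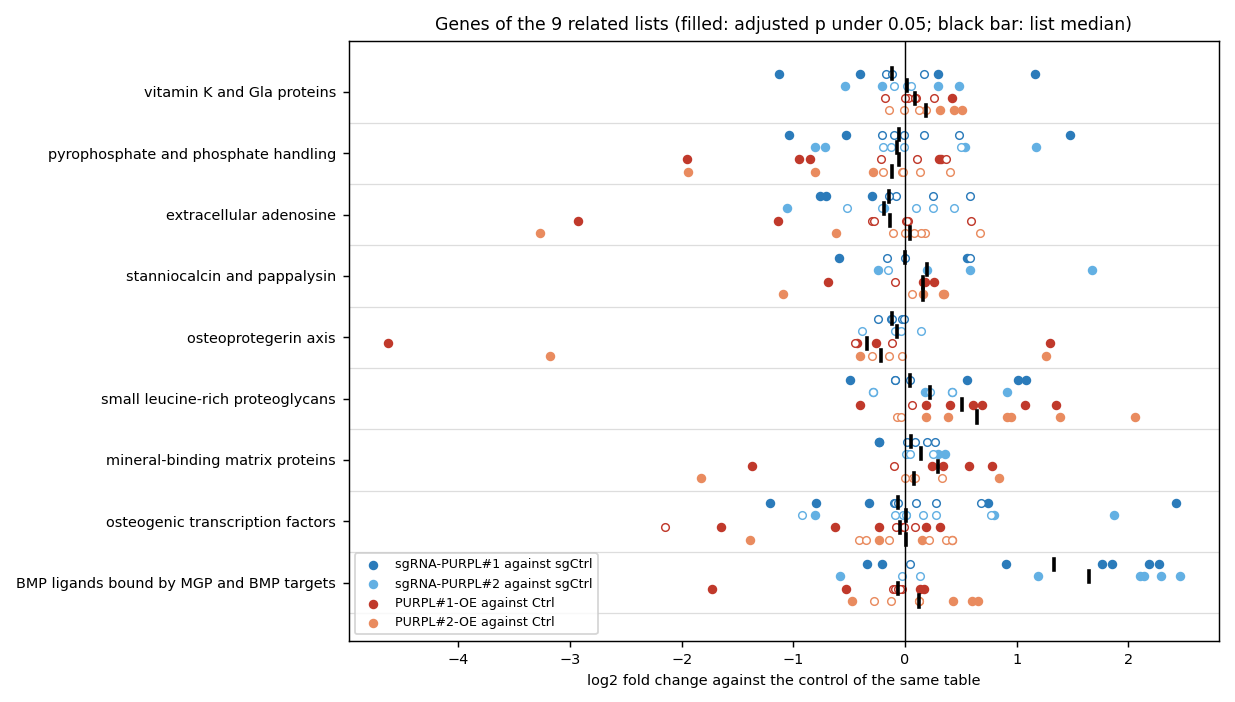
Log2 fold change of every tested gene of the 9 related lists in the 4 perturbed groups, each against its own control (filled points passed an adjusted p of 0.05, black bars are list medians). The BMP list has medians of 1.33 and 1.64 with the guides and -0.06 and 0.12 under overexpression. The proteoglycan list has medians of 0.51 and 0.65 under overexpression. The overexpression medians include BMP2 and OGN, each under the filter level in some group.

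Cell type markers were read beside these results. Of the 8 fibroblast markers none was at 0 in any group, and their summed level was 10129 to 11485 CPM over the knockdown libraries. It was 13231 to 14408 CPM in Ctrl, 17981 to 18064 in PURPL#1-OE and 16646 to 17807 in PURPL#2-OE, and 7 of the 8 rose in each overexpression group, beside 19.5% and 18.9% of all genes. The 6 smooth muscle markers summed to 125 to 136 CPM in Ctrl, 201 to 221 in PURPL#1-OE and 164 to 170.3 in PURPL#2-OE, the same order of groups as MGP. Of the 6, 4 and 3 rose, beside the same shares of all genes. In each group 1 fell (SMTN, from 9.5 ± 0.310 CPM to 6.65 ± 0.866 and 5.93 ± 1.21), beside 20.1% and 19.6% of all genes. MYH11, 1 of the 4 rises in PURPL#1-OE, was under the filter level in Ctrl and passed through the overexpression groups. DES was under that level on average in every group of that table, so neither gene supports the count. In the knockdown table the sum was 135 to 150.1 CPM in sgCtrl, 83.2 to 91.9 with guide 1 and 112 to 115 with guide 2, which is not the order of MGP there. That sum moved with CNN1 (58.3, 32.0 and 46.7 CPM on average) and SMTN (54.9, 27.9 and 34.2). The group means of MYOCD, a cofactor that drives smooth muscle genes, had the order of the MGP means in both tables. In the knockdown table MGP with guide 1 overlapped sgCtrl (edgeR adjusted p = 0.823), so the order of those 2 groups is not established. MYOCD averaged 0.724 ± 0.405 CPM in sgCtrl, under the filter level, 2.09 ± 0.263 with guide 1 and 4.92 ± 0.157 with guide 2. It averaged 11.3 ± 0.211 CPM in Ctrl, 29.4 ± 0.348 in PURPL#1-OE and 24.3 ± 1.37 in PURPL#2-OE. MYH11, the smooth muscle myosin, was under 1 CPM on average in every group. The part of these markers in the MGP level was not tested.

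The 7 osteoblast markers summed to 0.311 to 1.76 CPM over all libraries, with SOST at 0 in every group and SP7, IBSP and DMP1 at 0.0528 CPM or less on average. BGLAP was also at 0, but it lies inside the readthrough gene PMF1-BGLAP on the same strand, and such genes received no counts in these files. The 7 chondrocyte markers summed to 7.44 to 8.57 CPM in Ctrl, 4.58 to 4.63 in PURPL#1-OE and 4.96 to 5.60 in PURPL#2-OE, and most of that sum was SOX9 and MATN3. Endothelial and keratinocyte markers summed to at most 7.37 and 12.9 CPM. The 6 melanocyte markers summed to 52.1 to 55.6 CPM in Ctrl, 70.8 to 78.0 in PURPL#1-OE and 72.8 to 74.8 in PURPL#2-OE, nearly all of it MITF (53.3 ± 1.79, 74.0 ± 3.82 and 73.4 ± 1.15 CPM). In the knockdown table the melanocyte sum was 50.7 to 60.9 CPM in sgCtrl, 70.7 to 77.2 with guide 1 and 51.8 to 58.4 with guide 2. MITF averaged 56.4 ± 5.11, 72.6 ± 3.66 and 53.2 ± 3.32 CPM there. The part of all these markers in the results was not tested.

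The genes whose pattern was most like that of MGP were found by Pearson correlation over the 18 libraries, with each library set against the mean control of its own table, among 9685 protein-coding genes with a mean of at least 5 CPM. They were CCN2 (r = 0.974), ARHGAP28 (0.97), MARCHF2 (0.968), CCDC80 (0.967) and EFHD1 (0.967). CCN2, a matricellular growth factor, was at 309.8 ± 8.42, 302 ± 9.24 and 425 ± 13 CPM in sgCtrl, guide 1 and guide 2, and at 273 ± 10.2, 812 ± 20.7 and 500.1 ± 13.5 CPM in Ctrl, PURPL#1-OE and PURPL#2-OE. CCDC80, a secreted matrix protein, was at 526 ± 7.23, 513 ± 28.1 and 632 ± 13.1 CPM and at 1157 ± 44.4, 3654 ± 76.0 and 2914 ± 126 CPM in the same order. The points share groups and depth, so r is a description. Among the members, r with MGP was -0.974 for NT5E, -0.89 for STC2, -0.845 for STC1, 0.838 for ANKH, 0.649 for ENPP1, 0.544 for OMD and 0.207 for TNFRSF11B.

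**Figure D4:**
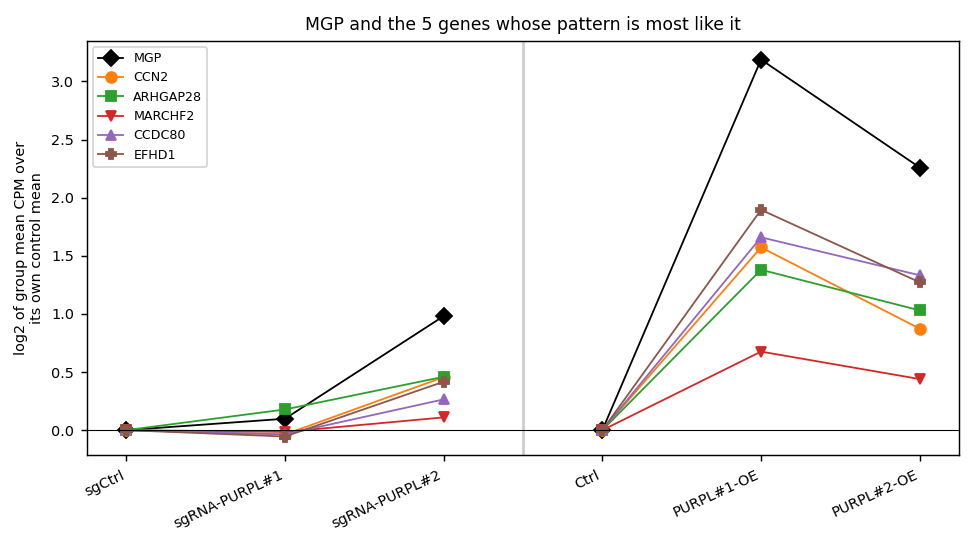
Log2 of each group's mean CPM over the mean of its own control, for MGP and the 5 genes most like it; lines join the groups of one table. MGP lies above the other 5 in guide 2 and in both overexpression groups, and all 6 are higher in PURPL#1-OE than in PURPL#2-OE.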

How the data were processed

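Poly(A) RNA of BJ cells was sequenced on a DNBSEQ-T7, per the labels' protocols. The labels' molecule field reads genomic DNA, which differs from that protocol; the files hold counts per gene and were treated as RNA-seq. The authors deposited raw read counts per gene, 61544 genes in each of 2 tables of 9 libraries. FastQC 0.11.9, cutadapt 3.3, HISAT2 2.1.0, SAMtools 1.11, featureCounts 2.0.1 and DESeq2 1.34.0, with hg38 (GRCh38.p13), are named in the submitters' processing notes. The length column equals the whole gene span for all 61544 genes.

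Each table was fitted with edgeR 4.0.16 in R 4.3.3: filterByExpr (minimum count 10, minimum total 15), TMM scaling, robust quasi-likelihood fit of 6 residual degrees of freedom, Benjamini-Hochberg adjustment over all genes tested, threshold 0.05. A joint fit of 18 libraries compared the effects. The script was tested on simulated data. Alternatives were DESeq2 1.42.0, RLE scaling, no filter, the 2 groups alone, a replicate block and leaving out each library.

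The members and lists were chosen with earlier results of these data known. All members are named; within a list and table, up to 4 genes past the threshold in both groups with the same sign are named, by largest mean change, otherwise the 1 with the lowest adjusted p. Some genes counted in this way are given in the counts alone. Most overexpression columns of PURPL#1-OE and PURPL#2-OE carry no replicate number and were assigned by group only. No libraries were duplicates: within groups chi-square per gene was at least 2.5.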

Additional observations from a re-analysis of the deposited data

Results flagged for a closer look

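Several members differed between the 2 guides, by the edgeR quasi-likelihood test of that difference itself. Guide 2 minus guide 1 was 0.87 for MGP on the log2 scale (adjusted p = 0.0391), -0.29 for ANKH (0.00513), -0.48 for NT5E (1.04e-06), -1.04 for STC1 (2.03e-10) and -0.41 for TNFRSF11B (7.98e-06). The MGP difference was lost with DESeq2 (adjusted p = 0.304) and without any 1 of the 6 guide libraries (0.0650 to 0.153), and the ANKH difference without sgRNA-PURPL#1 replicate 1 (0.0724). For PURPL itself the value was 0.30 (adjusted p = 0.128).

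Comparisons between the overexpression groups also passed that test. PURPL#2-OE minus PURPL#1-OE was 0.39 for ENPP1 (adjusted p = 5.23e-05), -0.26 for ANKH (0.00957), 0.27 for NT5E (0.000568), 0.21 for STC1 (0.0261), 0.79 for OMD (0.00312) and 0.30 for TNFRSF11B (0.000115). The STC1 difference was lost with DESeq2 (adjusted p = 0.0807) and without 3 of the libraries (0.115 to 0.179), and the ANKH difference without 2 of them (0.0646 and 0.0887), as named with those genes. PURPL was lower in PURPL#2-OE by -0.50 (adjusted p = 1.81e-07).

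The knockdown effect differed from the overexpression effect, by the same kind of test over 18 libraries, for ENPP1 (-1.08), ANKH (-0.46), NT5E (1.28), STC1 (0.43), STC2 (1.20) and TNFRSF11B (-0.50). The knockdown effect averages 2 guides, which differed for ANKH, NT5E, STC1 and TNFRSF11B. STC1 gave -0.11 with guide 1 and -1.16 with guide 2, beside -1.17 in PURPL#1-OE and -0.96 in PURPL#2-OE.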

How the results depend on the processing

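Of the values recomputed for single members, 750 stayed the same, 16 lost the threshold, 5 gained it, 2 changed sign and 1 described value moved. A tested value stayed the same if it kept its direction and its side of the threshold. MGP under overexpression and in the joint contrast had no test. There it stayed the same if it kept its direction and shifted by less than the SD within groups. The sign changes were MGP with guide 1 (-0.11 without sgCtrl replicate 3, with a range of -0.11 to 0.51 over libraries left out) and OMD in the joint contrast (0.14 without the same library, range -0.96 to 0.14); neither main value had passed. With DESeq2 the genes called were 2217 for guide 1, 2145 for guide 2 and 827 between the guides, against 3417, 3393 and 1288. DESeq2 had no low-count filter and adjusted over 27824 genes, against 13923 for edgeR. With no filter edgeR called 3292, 3281 and 1363 of 27825 genes. Leaving out each library in turn, the members called between the guides ranged from 3 to 6, beside 881 to 1755 of all genes. With sgRNA-PURPL#1 replicate 1 left out 3 members were called, beside 934 of 14156 genes. The cause was not tested.

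In the knockdown table, deviations of libraries with the same replicate number correlated at -0.089 to 0.039 and with other numbers at -0.083 to 0.114. Of the 9 libraries, 0 matched its own number best, so no pairing by number was seen. Correlations this weak cannot exclude that libraries of the same number were handled together. A fit with the replicate block called 3250, 3217 and 1204 genes for guide 1, guide 2 and the difference between the guides. No paired analysis was possible in the overexpression table because its groups share fewer than 2 replicate numbers. Depth limits ALPL in both tables and OMD and MGP in the knockdown table, where MGP had 13 to 39 counts per library.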
